A study of Mus musculus with 6 samples.

Results

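A set of 9 genes that mark contractile and mesenchymal cells was followed in mouse skin carcinoma cells in which Loxl2 or Snail had been silenced. They are Vim, Acta2, Tagln, Cnn1, Cald1, Tpm1, Tpm2, Zyx and S100a4. They were taken by gene name from the probes on the arrays that are not controls, and all 9 were found, each with 1 probe, among 19496 distinct gene names. The rule matches names and uses no measured value, though the set was put together with earlier results of these data known. All 9 probes passed the filter on dim signal and were tested, as did 19752 of the 20868 probes.

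The cells were the HACA line. A first group carried a short hairpin RNA against Loxl2 (shLoxl2), another a hairpin against Snail (shSNAIL in the labels, shSnail here), and the control line carried a hairpin against GFP (shGFP), so every group expressed a hairpin. Labels give no passage, time after silencing, clone or medium, and do not say that the numbered samples were separate cultures. The p-values therefore measure the spread between these samples, which may be technical. Those of shSnail against shGFP also take in the spread between the 2 arrays of a shLoxl2 sample. Each of 6 two-colour arrays set a silenced RNA against shGFP RNA: shLoxl2 samples 1 and 2 were each hybridised in both dye orientations (4 arrays), and shSnail samples 1 and 2 each on 1 array with the silenced RNA in Cy5. All values below are log2 ratios of silenced over shGFP RNA unless a level is named, n is 2 per silenced group, and shGFP counts as 1 control sample whose own spread is left out of the tests against it.

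The genes encode parts of the machinery by which a cell pulls on its surroundings. Actin filaments are wound with tropomyosins (Tpm1, Tpm2), and caldesmon (Cald1), calponin (Cnn1) and transgelin (Tagln, also called SM22) bind to them and modulate contraction or bundling; Acta2 is the smooth muscle alpha-actin that myofibroblasts also make, and zyxin (Zyx) is an adaptor of focal adhesions and stress fibres. Vimentin (Vim) is the intermediate filament protein of mesenchymal cells, and S100a4, also named fibroblast-specific protein, is a calcium-binding protein that interacts with non-muscle myosin. In carcinoma cells these genes are commonly read as signs of an epithelial-mesenchymal transition, in which Snail acts as a repressor of E-cadherin and LOXL2 as a partner of Snail; several are targets of serum response factor (SRF), which binds the CArG box.

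Red (Cy5) signal stood well above background for 85.4% to 92.4% of the probe spots on an array, and green (Cy3) signal for 55.9% to 74.9%. Median green negative-control signal was 676.4 to 858.6 on the shLoxl2 arrays, and 292 and 354 on the shSnail arrays, which were also scanned on other days under another extraction protocol of the scanner software; scan day and hairpin cannot be told apart where shSnail is compared with shLoxl2. Neither silenced gene could check its label: the Loxl2 ratio in shLoxl2 cells was 0.11 (limma adjusted p = 0.59), and its probe was well above background in the silenced channel on 2 of 4 arrays, while the Snai1 probe was above background in the silenced channel on none of the 6 arrays. Of 10 keratinocyte and epithelial markers, 9 were above background in red on all 6 arrays. Of 9 fibroblast markers 6 were, of 7 smooth muscle markers 4, of 10 skeletal and cardiac muscle markers 7, of 7 endothelial markers 5 and of 7 leukocyte markers 5. Fap, Myocd, Tek and Ptprc, 1 marker from each of 4 of those lists, were above background in red on none. Of the 7 smooth muscle markers 5, and of the muscle markers Acta1 and Actc1, also stand in the lists of related genes counted further on.

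The 9 genes did not move as a block. In shLoxl2 cells S100a4 was higher and Cald1, Tpm1 and Zyx were lower; in shSnail cells S100a4 and Tagln were higher and none was lower, although Acta2 and Cald1 had values below 0 with an unadjusted limma p of 0.0322 and 0.0119. Thus 4 of 9 passed the threshold with shLoxl2 (limma, Benjamini-Hochberg adjusted p below 0.05), where 13.8% of all probes tested passed (8.01% higher, 5.82% lower). With shSnail 2 of 9 passed, against 15.2% of all probes (5.88% higher, 9.31% lower). Their median log2 ratio was -0.26 with shLoxl2 and -0.15 with shSnail, beside -0.01 and -0.04 over all probes. Both comparisons use shGFP as the reference. S100a4 was the one gene of the 9 that passed in both.

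**Figure D1:**
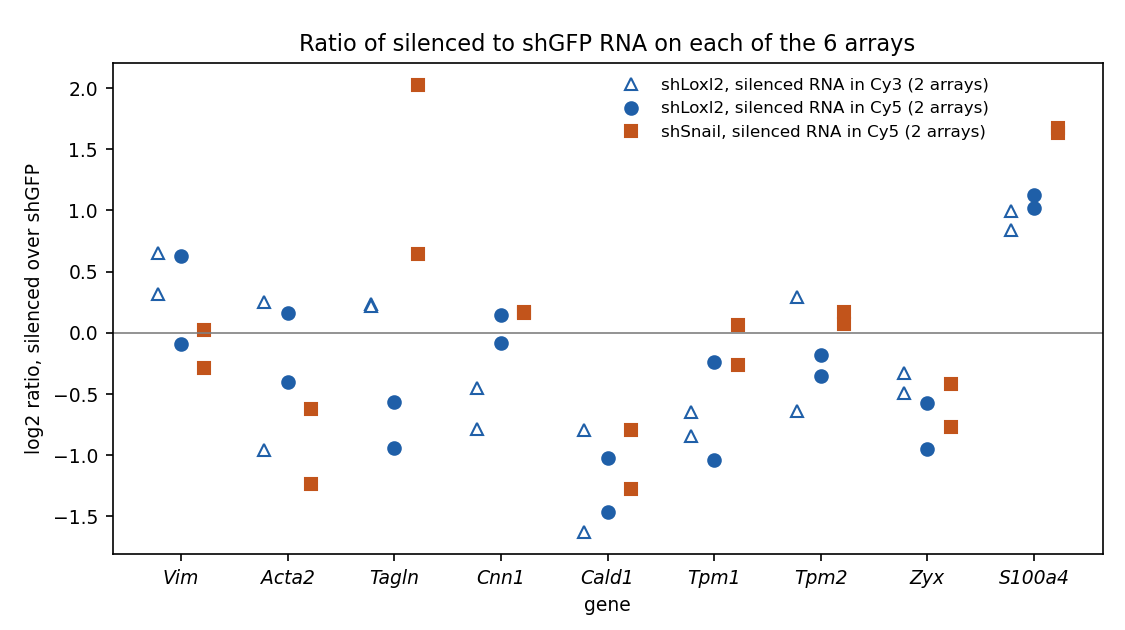
The log2 ratio of silenced over shGFP RNA (y axis) is plotted for each of the 9 genes (x axis) on each array; open triangles are shLoxl2 arrays with the silenced RNA in Cy3, filled circles shLoxl2 arrays with it in Cy5, and squares shSnail arrays. S100a4 lies above 0 and Cald1 and Zyx below 0 on all 6 arrays, whereas Tagln lies at 0.22 to 0.24 on the shLoxl2 Cy3 arrays, at -0.57 and -0.94 on the Cy5 arrays and at 0.64 and 2.02 on the shSnail arrays.

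S100a4 was higher in both silenced lines, and its values lay close together. Its probe (mm8, chr3:90691847-90691907, plus strand) gave log2 ratios of 0.84 and 1.13 for shLoxl2 sample 1 in Cy3 and Cy5, and 0.997 and 1.02 for sample 2. The shSnail arrays gave 1.63 and 1.67, so every array showed more S100a4 RNA in the silenced cells, and the shSnail values lay above both shLoxl2 Cy3 values. On the shLoxl2 Cy5 arrays the silenced channel was saturated, so those ratios are lower bounds and were not ranked against shSnail. Averaged over the dye pairs, the shLoxl2 ratio was 0.996 ± 0.018 (SD, n = 2), which is 1.99-fold higher than shGFP as read, with saturated spots on 2 of the 4 arrays (SE 0.11 log2, limma adjusted p = 0.0048). The shSnail ratio was 1.65 ± 0.03 (SD, n = 2) as measured and 1.57 after the dye effect of the shLoxl2 arrays had been removed, 2.98-fold higher than shGFP (SE 0.15, limma adjusted p = 0.00361). The direct difference, shSnail against shLoxl2 on the 4 Cy5 arrays, was 0.58 (95% confidence interval 0.19 to 0.97) and did not pass (limma adjusted p = 0.0674); it rests on the saturated shLoxl2 spots. The shGFP level of this probe, 13.91 and 14.06 on the shLoxl2 Cy5 arrays and 13.89 and 13.82 on the shSnail arrays (normalized log2 signal), differed by -0.13 (limma adjusted p = 0.73). The shLoxl2 call was lost with the log ratios the scanner software had computed (0.95, limma adjusted p = 0.0516). The shSnail call was lost when either shSnail sample was left out (1.59 without sample 1, limma adjusted p = 0.0565; 1.55 without sample 2, limma adjusted p = 0.059), and in each of those fits 2 probes passed, of 19746 and 19750 tested. RNA was taken from whole cultures, so fewer cells of a kind and less RNA per cell cannot be told apart, here and for the genes below.

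Tagln was the one gene of the 9 that passed between the silenced lines, where scan day and hairpin cannot be told apart. Its probe (mm8, chr9:45681009-45681068, minus strand) gave 0.24 and -0.57 for shLoxl2 sample 1 in Cy3 and Cy5, and 0.22 and -0.94 for sample 2. The sign of the shLoxl2 ratio therefore turned with the dye, by a dye effect of -0.49, and the dye-balanced mean of -0.26 ± 0.14 (SD, n = 2) did not pass (limma adjusted p = 0.622). The shSnail arrays gave 0.64 and 2.02, both above every shLoxl2 value and far apart from each other. Their mean was 1.33 ± 0.98 (SD, n = 2) as measured (limma adjusted p = 0.0254), and 1.82 with the dye effect removed (SE 0.37, 3.54-fold higher, limma adjusted p = 0.025). Removing only the share of the dye effect that the shSnail arrays showed over all probes, a slope of 0.453, gave 1.55 (limma adjusted p = 0.0225). Against shLoxl2 on the Cy5 arrays the difference was 2.09 (SE 0.47, 95% confidence interval 0.90 to 3.28, limma adjusted p = 0.0485); 1 of the 9 genes passed this comparison, in which 12.8% of all probes did (4.24% higher, 8.56% lower).

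Levels in the separate channels stand behind these Tagln ratios. On the shSnail arrays the shSnail level was 12.30 and 12.40 (normalized log2 signal), and the shGFP level was 11.66 and 10.37, so the 2 ratios differ mainly through the control channel. On the shLoxl2 Cy5 arrays the shLoxl2 level was 9.01 and 8.06 and the shGFP level 9.57 and 9.002. Tagln was thus brighter in both channels of the shSnail arrays than in either channel of the shLoxl2 arrays. Over all shLoxl2 arrays its levels ran from 8.06 to 9.57, so the probe was dim there and its shLoxl2 ratios are limited by that. The same shGFP line in the same dye differed by 1.73 between the shSnail and the shLoxl2 arrays (SE 0.45, limma adjusted p = 0.0919, in a comparison where 3.97% of all probes passed, added after the values had been seen). After median centring that control difference passed (1.73, limma adjusted p = 0.0415). That setting also called more probes between the silenced lines, 9379 of 19752 beside 2527 with loess. The control difference lies above the Tagln shSnail ratio as measured (1.33) and with the scaled dye effect (1.55), and below the fully corrected 1.82. Setting the silenced Cy5 channels alone against each other, also added afterwards, gave 3.82 (limma adjusted p = 0.000332), in a comparison in which 49.2% of all probes passed. The summed level of the 5 smooth muscle markers tested was also higher in both channels of the shSnail arrays, 12.6 to 12.9 in shSnail and 13.4 to 13.6 in shGFP RNA, against 11.2 to 12.1 in shLoxl2 and 11.4 to 12.4 in shGFP RNA on the shLoxl2 arrays (log2). For the 10 skeletal and cardiac muscle markers the sums were 13.3 to 13.5 and 13.8 to 14.02 on the shSnail arrays, and 11.5 to 11.7 and 11.4 to 11.9 on the shLoxl2 arrays. Those of the 8 fibroblast markers overlapped, at 10.5 to 10.6 in both channels of the shSnail arrays and 10.3 to 10.9 over those of the shLoxl2 arrays. Those of the 10 keratinocyte and epithelial markers were 17.0 in shSnail against 18.05 to 18.06 in shGFP RNA, and 17.3 to 17.6 in shLoxl2 against 17.7 to 18.1 in shGFP RNA; 1 of these markers was higher and 4 lower with shSnail, and 2 were higher and 3 lower with shLoxl2 (limma). None of the 5 smooth muscle markers tested passed in either comparison with shGFP (limma, 1 with shLoxl2 and 0 with shSnail at an unadjusted p below 0.05). Of the 7 listed, 4 were above background in red on all 6 arrays and Myocd was on none. The part of the summed levels in the values of Tagln or the other genes was not tested.

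**Figure D2:**
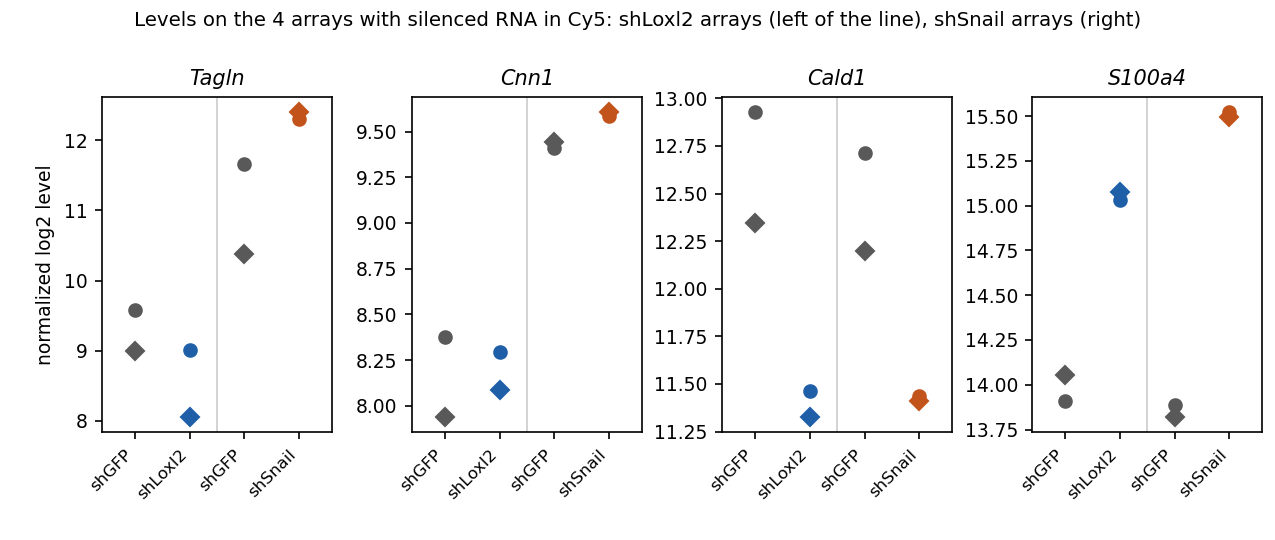
Normalized log2 levels (y axis) of 4 genes in the shGFP and silenced channels of the 4 arrays whose Cy5 channel holds silenced RNA; circles are samples numbered 1, diamonds samples numbered 2, and the line parts the shLoxl2 arrays from the shSnail arrays. The shGFP levels of Tagln (11.66 and 10.37 against 9.57 and 9.002) and Cnn1 (9.41 and 9.44 against 8.38 and 7.94) are higher on the shSnail arrays, while those of Cald1 and S100a4 overlap or nearly overlap between the array groups.

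The Tagln call depended on single samples. Without shSnail sample 1 the shSnail ratio was 2.52, and without shSnail sample 2 it was 1.13. The call was lost in both fits, as were nearly all calls over the array, so that loss was not particular to Tagln. Against shLoxl2 the difference was 1.40 without shSnail sample 2 and 1.90 without shLoxl2 sample 2, where the call was lost, but 2.78 without shSnail sample 1. With the scanner software's log ratios it was 1.88 against shGFP (limma adjusted p = 0.0689) and 2.27 against shLoxl2 (limma adjusted p = 0.102). The direction was higher under all 11 alternatives of the first comparison and all 12 of the second. Some of these, such as the other filters on dim probes, leave the value itself unchanged, so its sign was fixed there.

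Cald1, which restrains the myosin ATPase on actin filaments, had ratios below 0 on every array. Its probe (mm8, chr6:34703945-34704004, plus strand) gave -1.63 and -1.46 for shLoxl2 sample 1 and -0.80 and -1.02 for sample 2, and -1.27 and -0.79 on the shSnail arrays. The 2 silenced groups overlapped. The shLoxl2 mean was -1.23 ± 0.45 (SD, n = 2), 2.34-fold lower than shGFP (SE 0.20, limma adjusted p = 0.014). The shSnail value was -1.02 (95% confidence interval -1.72 to -0.31) and did not pass with the dye effect removed in full (limma adjusted p = 0.066). It passed at -1.03 with the scaled dye effect (limma adjusted p = 0.0396; 3 of the 9 genes and 15.5% of all probes passed there) and at -1.03 with none (limma adjusted p = 0.0261; 4 of the 9 genes and 22.8% of all probes), and the dye effect of this probe was -0.02. The direct difference between the silenced lines was 0.21 (95% confidence interval -0.43 to 0.85, limma adjusted p = 0.605), an interval that includes a Cald1 level higher or lower in either line. Without shLoxl2 sample 1 the shLoxl2 value was -0.91 (limma adjusted p = 0.0604), and with the scanner software's log ratios -1.31 (limma adjusted p = 0.0687).

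Tropomyosins, which lie along the actin filament, gave lower values for Tpm1 in shLoxl2 cells. The Tpm1 ratios were -0.84 and -0.24 for shLoxl2 sample 1 and -0.65 and -1.04 for sample 2, and 0.06 and -0.26 for shSnail. All 4 shLoxl2 values were below 0, and the shSnail values spanned 0 and overlapped them. The shLoxl2 mean was -0.69 ± 0.22 (SD, n = 2), 1.61-fold lower (SE 0.14, limma adjusted p = 0.0278), while the shSnail value was -0.15 (95% confidence interval -0.77 to 0.47, limma adjusted p = 0.74). The direct difference of 0.54 did not pass (95% confidence interval -0.24 to 1.32, limma adjusted p = 0.289). With the scanner software's log ratios the shSnail value against shGFP was -0.83 (limma adjusted p = 0.158), where the median of all probes was -0.28. This probe was dim: its normalized log2 level ran from 8.08 to 9.12, and it was not well above background in the silenced channel on 1 of 4 shLoxl2 arrays. The probe's coordinates (mm8, chr9:66827296-66828851, minus strand) span 1556 bases, more than the probe is long, so by its coordinates it crosses an intron, and 1 probe cannot tell which Tpm1 isoforms it reads. The size changed with the processing: it was -0.34 with no background subtraction (limma adjusted p = 0.0447) and -1.48 with the scanner software's log ratios (limma adjusted p = 0.0433). The call was lost without shLoxl2 sample 2 (-0.54, limma adjusted p = 0.0953).

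Tpm2, the other tropomyosin of the set (probe at mm8, chr4:43536120-43536179, minus strand), gave -0.64, -0.35, 0.29 and -0.18 on the shLoxl2 arrays and 0.08 and 0.17 on the shSnail arrays. The values of shLoxl2 sample 1 were both below 0, those of sample 2 lay on either side, and the mean of -0.22 did not pass (limma adjusted p = 0.413), nor did the shSnail value of 0.17 (limma adjusted p = 0.726). The Tpm2 probe was dim as well, with normalized log2 levels of 7.92 to 9.05.

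Cnn1, a calponin that binds actin and is known as a late marker of smooth muscle, showed no called ratio. Its probe (mm8, chr9:21859016-21859075, plus strand) gave -0.79 and -0.08 for shLoxl2 sample 1 and -0.45 and 0.15 for sample 2, so the Cy3 arrays were lower than the Cy5 arrays (dye effect 0.33). The shSnail arrays gave 0.17 and 0.16. The shLoxl2 mean was -0.29 (limma adjusted p = 0.183) and the shSnail value -0.16 (limma adjusted p = 0.588), whose sign turned to 0.02 with the scaled dye effect. With the scanner software's log ratios the shSnail value was -1.05 (limma adjusted p = 0.111). Like Tagln, Cnn1 was brighter in both channels of the shSnail arrays: the shGFP level was 9.41 and 9.44 there and 8.38 and 7.94 on the shLoxl2 Cy5 arrays, a difference of 1.27 (SE 0.22, limma adjusted p = 0.0444). Of the 9 genes it alone passed that control-against-control comparison with loess. After median centring, which called more probes between the silenced lines, Tagln did too. The silenced levels were 9.58 and 9.61 against 8.30 and 8.09. The probe was not well above background in the shGFP channel on 1 of 4 shLoxl2 arrays.

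The numbered shLoxl2 samples parted on Acta2. Its probe (mm8, chr19:34314502-34317756, minus strand, a span of 3255 bases that by its coordinates also crosses an intron) gave -0.96 and -0.40 for shLoxl2 sample 1 but 0.25 and 0.16 for sample 2, so the 2 shLoxl2 samples moved to opposite sides of 0 in both dyes. Their mean was -0.24 ± 0.63 (SD, n = 2) and did not pass (limma adjusted p = 0.576). The shSnail arrays gave -1.23 and -0.62, and the dye-corrected value of -1.04 had a wide 95% confidence interval, -1.96 to -0.12 (limma adjusted p = 0.121). It was below 0 under all 11 alternatives, some of which leave the value unchanged. It passed at -1.31 after median centring (limma adjusted p = 0.0049), where 7179 of 19752 probes passed, beside 3000 in the main fit. The value was -0.88 without shLoxl2 sample 1 and -1.2 without shLoxl2 sample 2. The direct difference of -0.80 did not pass either (95% confidence interval -1.56 to -0.05, limma adjusted p = 0.136). In the silenced Cy5 channels alone the shSnail level, 13.43 and 13.58, lay below the shLoxl2 level, 14.08 and 14.28.

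Acta2 was also the one member whose listed promoter held a sequence near the CArG box of SRF. Tagln had no listed RefSeq promoter window (GRCm38.p6, 250 bases before to 50 after a gene's start) and was not searched. Windows were listed for the other 8 of the 9 genes, Cald1 with more than 1. None held an exact CArG box, which 1.63% of all 32851 windows held; the box reads the same on both strands. None held the Snail-type E-box CAGGTG or its reverse complement CACCTG, found in 20.2% of windows. When 1 base of the A/T core of the CArG box was allowed to differ, 9.98% of windows matched, among them Acta2 with 2 boxes, beginning 84 and 34 bases before the start. The stretch before the Acta2 start is shown because it carries both, in capitals, 5′ to 3′ on the minus strand (GRCm38.p6, chr19:34255374-34255483):
Acta2 promoter: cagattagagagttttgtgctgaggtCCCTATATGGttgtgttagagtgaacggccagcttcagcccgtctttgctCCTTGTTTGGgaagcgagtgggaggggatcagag
The first box is CCCTATATGG and the second CCTTGTTTGG. A match describes these letters in this window and does not show that a factor binds there.

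Vim, the one intermediate filament gene of the set, did not pass the threshold in either line. Its probe (mm8, chr2:13500520-13500579, plus strand) gave 0.65 and -0.09 for shLoxl2 sample 1, 0.31 and 0.63 for sample 2, and -0.29 and 0.02 for shSnail. Of the 4 shLoxl2 values, 3 lay above both shSnail values, and the remaining one lay between them. The shLoxl2 mean of 0.38 ± 0.14 (SD, n = 2; 95% confidence interval 0.06 to 0.69) did not pass (limma adjusted p = 0.123), and the shSnail value was -0.03 (95% confidence interval -0.63 to 0.58, limma adjusted p = 0.961). The silenced channel was saturated on 1 of 4 shLoxl2 arrays. Its shGFP level was also uneven, 15.24 and 13.42 on the 2 shLoxl2 Cy5 arrays. Loss of Vim is commonly read as a turn away from a mesenchymal state; no fall in Vim RNA was detectable here beyond the spread of these samples.

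Zyx, the adhesion adaptor (probe at mm8, chr6:42287938-42287997, plus strand), gave -0.33 and -0.95 for shLoxl2 sample 1 and -0.49 and -0.57 for sample 2, and -0.77 and -0.42 on the shSnail arrays. All 6 values were below 0, and the groups overlapped. The shLoxl2 mean was -0.59 ± 0.08 (SD, n = 2), 1.5-fold lower (SE 0.13, limma adjusted p = 0.0373). The shSnail value was -0.42 with the dye effect removed (limma adjusted p = 0.198), -0.52 with it scaled (limma adjusted p = 0.0923) and -0.59 uncorrected, where it passed (limma adjusted p = 0.0399). The direct difference was 0.17 (95% confidence interval -0.39 to 0.72, limma adjusted p = 0.641). Zyx was saturated in the silenced channel on 2 of 4 and in the shGFP channel on 3 of 4 shLoxl2 arrays and on neither shSnail array, and a saturated spot understates its own level. The shLoxl2 call was lost without sample 1 (-0.53, limma adjusted p = 0.14), without sample 2 (-0.64, limma adjusted p = 0.072) and with the scanner software's log ratios (-0.65, limma adjusted p = 0.108).

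**Figure D3:**
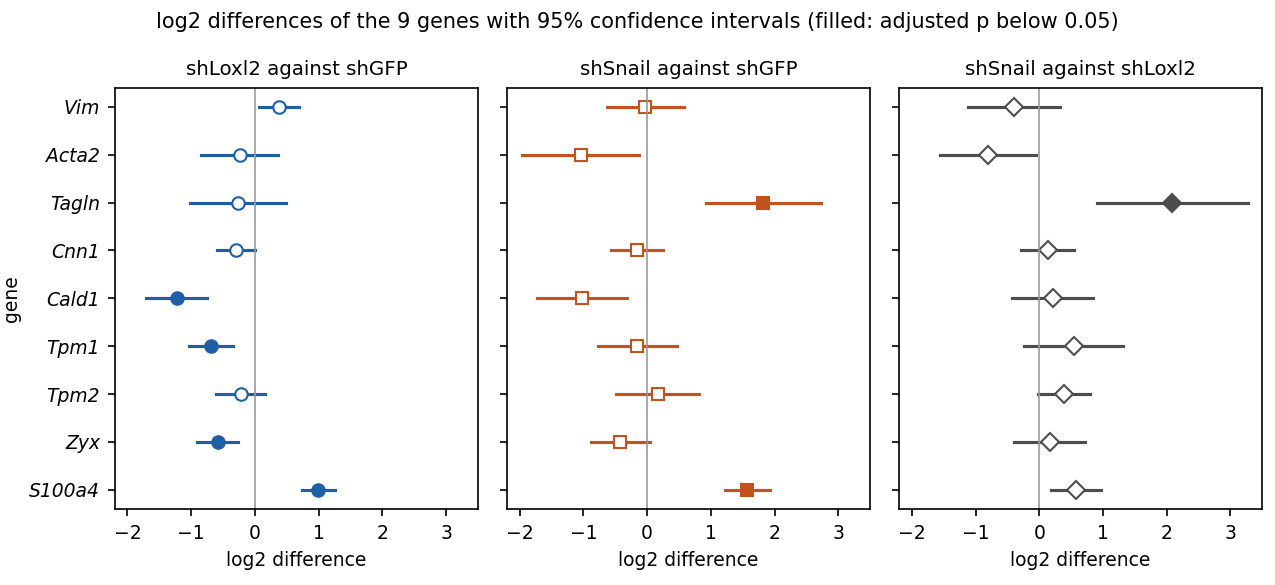
The log2 difference (x axis) of each of the 9 genes (y axis) with its 95% confidence interval is shown for shLoxl2 against shGFP, shSnail against shGFP with the dye effect removed, and shSnail against shLoxl2; filled symbols passed an adjusted p of 0.05. S100a4 is filled in the first and second panels, Cald1, Tpm1 and Zyx in the first, and Tagln in both panels of shSnail, with an interval of 0.90 to 3.28 against shLoxl2.

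Related genes were counted whole, in 5 lists with 81 genes tested. With shLoxl2, 10 were higher and 9 lower (23.5%), beside 8.26% and 5.85% of all genes. With shSnail, 10 were higher and 9 lower (23.5%), beside 6.07% and 9.21%. Between the silenced lines 6 were higher and 8 lower in shSnail (17.3%), beside 4.35% and 8.56%. Values of both comparisons with shGFP are set side by side below, and they share that reference; genes named passed the limma threshold over all probes unless another value is given. With the dye effect scaled, 11% of all probes passed between the silenced lines.

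Among actin and myosin genes, 15 tested, 1 was higher and 1 lower with shLoxl2, both regulators of myosin phosphatase: Ppp1r12b at 0.53 and the inhibitor Ppp1r14a at -0.44. With shSnail 3 were higher and none lower (limma; 3 lower at an unadjusted p below 0.05), namely the myosin light chains Myl9 at 1.11 and Myl6 at 0.94, and Ppp1r12b at 1.14. Ppp1r12b did not pass with the scaled dye effect (0.50, limma adjusted p = 0.0705). Myl6 was also higher in shSnail than in shLoxl2 cells, by 1.24, the one called gene of this list in that comparison. Myl9 and Myl6 were thus higher in shSnail cells while the median of the list was -0.26, beside -0.04 over all genes. With the scaled dye effect the list median was -0.01. Myl9 was at 0.60 with shLoxl2 (limma adjusted p = 0.0523). Its difference between the silenced lines did not pass (0.51, limma adjusted p = 0.165).

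Among 19 actin-binding genes related to the members, 1 was higher and 4 lower with shLoxl2, and 2 were higher and 3 lower with shSnail. The filament-capping Tmod3 was lower with both (-0.71 and -0.996). The cross-linker Actn1 was lower with shLoxl2 at -0.86, and a further tropomyosin, Tpm4, was lower with shSnail at -0.90. Actn2 was the one gene of this list called between the silenced lines (0.83), a call that the scaled dye effect ended (0.45, limma adjusted p = 0.135).

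Zyxin's own family and other focal adhesion genes, 26 tested, gave the largest differences of the lists. With shLoxl2, 6 were higher and 3 lower: Pdlim2, a PDZ-LIM adaptor, was at 2.08, Tgfb1i1, a paxillin relative also called Hic-5, at 1.09, and the LIM-only gene Fhl1 at -1.55. With shSnail 1 was higher and 5 lower: the zyxin relatives Lpp, at -2.56, and Ajuba, at -1.37, and the actin regulator Enah, at -1.01, had the smallest p-values. Between the silenced lines 1 was higher and 7 were lower in shSnail. Lpp (-2.07) and Pdlim2 (-2.09) were lower and Fhl1 (1.66) was higher, so for these 3 the difference itself passed, whereas for Zyx it did not.

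Of 10 other intermediate filament genes tested, 1 was higher and 1 lower with shLoxl2, the neural progenitor filament Nes at 0.59 and the nuclear lamin Lmnb1 at -0.47. With shSnail 1 was lower, Lmnb1 at -1.82, and none higher (limma; 1 at an unadjusted p below 0.05). Lmnb1 also differed between the silenced lines at -1.34, and Nefl at 0.88, which the scaled dye effect ended (0.54, limma adjusted p = 0.185). Of 11 other S100-list genes, 1 was higher with shLoxl2, S100a13 at 0.60, and 4 with shSnail, among them S100a13 at 1.72, S100a10 at 1.30 and S100a1 at 0.86. None was lower with either hairpin (limma; 1 with each at an unadjusted p below 0.05), although 1 was with shSnail under the scaled dye effect. S100a13 was 1.12 higher in shSnail than in shLoxl2 cells, and S100a3 was 0.75 higher, a call lost with the scaled dye effect (0.59, limma adjusted p = 0.0609).

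**Figure D4:**
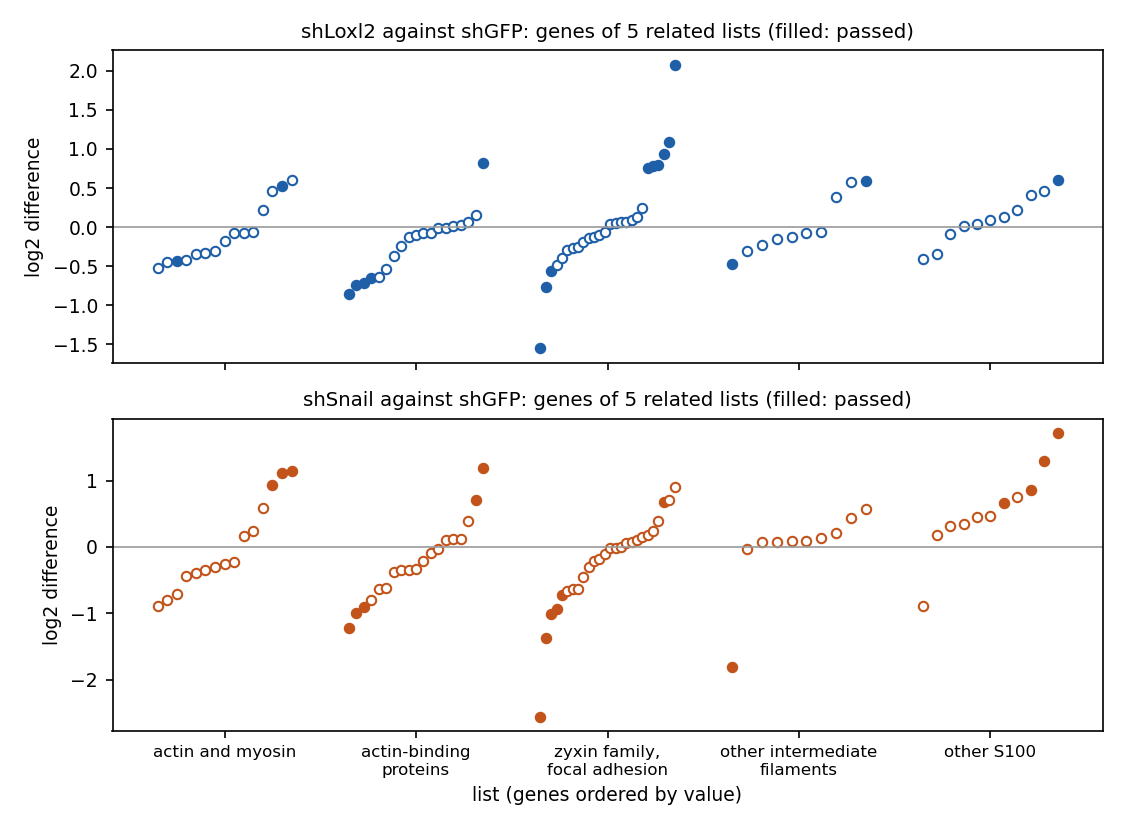
Each point is 1 gene of 5 related lists (x axis, ordered by value within a list), with its log2 difference (y axis) for shLoxl2 against shGFP above and shSnail against shGFP below; filled points passed an adjusted p of 0.05. Pdlim2 (2.08) and Fhl1 (-1.55) lie at the ends of the upper panel, and Lpp (-2.56) and S100a13 (1.72) at the ends of the lower one.

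Genes whose 6 array ratios lay closest to those of each called member were found by Euclidean distance (log2), as a description over arrays that share their reference. Those of Cald1 included Pxdc1 at 0.132 and Ppm1k at 0.387. For Zyx they were Mus81 (0.349), 2310047K21Rik (0.398) and Ttc39c (0.406), for Tpm1 Cluap1 (0.397), Arhgef39 (0.415) and Cenpp (0.433), and for S100a4 Mfge8 (0.413), Pop7 (0.452) and Commd5 (0.541). Among these called members Tagln lay farthest from its nearest genes, with Pou5f1 at 0.885, Nop10 at 1.03 and Ndufb4 at 1.14.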

How the data were processed

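Intensities (mean signal and local background median per spot and channel) and a log10 ratio of Cy5 over Cy3 were deposited by the authors for 6 Agilent arrays; the file headers name Feature Extraction 9.5.1.1, the submitters' processing notes 6.1.1. The deposited log10 ratios, in which the software had corrected background and dye, served as an alternative. Here limma 3.58.1 in R 4.3.3 corrected background (normexp, offset 50), applied loess within each array and tested the probes that 1 channel or both read well above background on 2 arrays or more. Control and outlier-marked spots were left out, spots of a probe were averaged, and Benjamini-Hochberg adjustment ran over all 19752 probes at 0.05. Ratios were turned to silenced over shGFP from the dyes in the labels; channel levels come from between-array Aquantile scaling.

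Each dye-swapped shLoxl2 pair was averaged to 1 value, with the dye-corrected shSnail values sharing the spread. For shSnail a model of all 6 arrays with a dye term was used, since both shSnail arrays have 1 orientation. It took the arrays as separate, also those of the same shLoxl2 sample. The correction assumes that the dye effect of the shLoxl2 arrays holds on the shSnail arrays, and the scaled version relaxes this. The silenced lines were compared on the 4 Cy5 arrays. The number of arrays limits the precision.

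Members and lists were chosen with earlier results of these data known. From each list up to 3 genes per comparison with the smallest p among those called are named. For each called member its 3 nearest genes were found, each gene read by its brightest tested probe. In the deposited value table, also a log ratio, the column of shSnail sample 2 repeats sample 1, so that table was only checked. The series' design text gives another number of hybridisations per condition than the labels, which were followed. Scripts were tested on simulated data. Some genes and 1 list that the rule names are not reported here.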

Additional observations from a re-analysis of the deposited data

Results flagged for a closer look

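For Tagln the log2 ratio of silenced over shGFP RNA was 2.09 higher in shSnail than in shLoxl2 cells (limma adjusted p = 0.0485). The shSnail value was higher on 2 of 2 arrays than on either shLoxl2 Cy5 array. Scan day and hairpin cannot be told apart in this comparison. The shGFP channel of the same arrays differed by 1.73 (limma adjusted p = 0.0919).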

How the results depend on the processing

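S100a4 and Zyx ratios kept their sign against shGFP under all 11 alternatives in each line, as did Cald1, and Tagln and Acta2 did in shSnail cells. Several alternatives, such as the other filters on dim probes, change only the spread or the probes tested, so no ratio could turn there. In shLoxl2 cells 774 probes and 1 of the 9 genes passed with the scanner software's log ratios; with shSnail 1 of the 9 then passed, and 0 against shLoxl2 (limma; 2 at an unadjusted p below 0.05). Median centring without loess called 7179 probes and 4 of the 9 genes with shSnail, and 9379 and 2 against shLoxl2. Without dye correction 4506 probes and 4 of the 9 genes passed with shSnail. Against shLoxl2, 2 of the 9 passed without background subtraction and 2 with a stricter filter (above background in both channels on 4 arrays), and 9717 probes and 5 of the 9 in the silenced channels alone. Of called probes 38.7% were higher with shSnail and 33.1% against shLoxl2, but 21.8% and 18% with the scanner's ratios, which put the median of all probes at -0.28 in both, and 51.1% and 53.5% after median centring, which put it at 0.10 and 0.12; the cause was not tested.

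Leaving out each sample in turn gave 1749 to 2790 probes and 2 to 4 of the 9 genes with shLoxl2, 2 to 5870 and 0 to 4 with shSnail, and 39 to 4308 and 0 to 2 against shLoxl2 (limma; where none of the 9 passed, 2 to 4 had an unadjusted p below 0.05). A lone sample was then assumed to vary like the other group. Signs turned at values near 0: against shGFP, Acta2 ran from -0.68 to 0.21 and Tpm2 from -0.50 to 0.055 in shLoxl2 cells, and Vim from -0.29 to 0.24, Tpm1 from -0.40 to 0.10 and Tpm2 from -0.021 to 0.36 in shSnail cells; against shLoxl2, Cald1 ran from -0.032 to 0.45 and Zyx from -0.025 to 0.36. Other turned signs, none of a called value, were Vim in shSnail cells at 0.0061 without background subtraction; Cnn1 there at 0.0033 without background subtraction, 0.014 after median centring, 0.018 with the scaled dye effect and 0.17 with no dye correction; against shLoxl2, Cnn1 at -0.76 with the scanner's ratios, Cald1 at -0.24 after median centring, and Vim at 0.22 and Zyx at -0.22 in the silenced channels alone; and Cald1 between the shGFP channels at 0.042 after median centring.

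With the replicate number as a block, Tagln against shLoxl2 had a limma adjusted p of 0.0675 and Acta2 of 0.0435; the labels do not say that numbers mark a shared culture, and same-numbered deviations correlated at 0.21. The random block on the 4 shLoxl2 arrays could not be fitted; on all 6 arrays, chosen after seeing the data, it lost the Tpm1 call (limma adjusted p = 0.06). Other probes of a gene could not be tried, since each member has 1. Dim signal (Tpm1, Tpm2, Cnn1, and Tagln on the shLoxl2 arrays) and saturated signal (Zyx, S100a4, Vim on 1 array) limit the ratios of those genes.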
